A study of Mus musculus with 24 samples.

Results

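The in vivo comparison described here sets epidermal stem cells (EpdSCs) sorted 1 week (W1) after SOX9 induction against EpdSCs sorted 2 weeks (W2) after it. Peaks of the W1 and W2 ATAC-seq lists were merged where they overlapped by at least 1 bp, which gave 75976 regions, against 134385 regions over all 12 lists of the study. Of these, 18301 were in the W2 list alone (W2-only), 14467 in the list labelled W1 alone (W1-only) and 43208 in both (shared). The study held 24 samples in 12 groups of 2, namely 5 in vivo groups and 7 groups of cultured EpdSCs. The cultures carried K14rtTA and were either left without DOX (TRE-myc-Sox9) or given DOX at 1 µg/ml to express wild-type SOX9, SOX9 lacking its HMG domain (noHMG), SOX9 lacking its transactivation domain (noTA), AFOS (a dominant-negative FOS), SOX9 with AFOS, or SOX9 with ARID1a, from lentiviral constructs for the variants, AFOS and ARID1a. All in vivo groups were male CD1 mice of genotype K14rtTA; TRE-myc-Sox9, in which the Krt14 promoter drives the doxycycline (DOX) activator in stratified epithelium and DOX then switches on MYC-tagged SOX9. DOX was injected at postnatal day 21 and given in the chow afterwards, except at W12. Mice were at postnatal day 21 for D0 (before DOX), 28 for W1, 35 for W2 and 63 for W6, while the W12 cells came from neonatal back skin grafted onto immunocompromised female Nude hosts, in which DOX was started once the grafts had healed. Weeks of induction and age of the mice therefore cannot be told apart between W1 and W2. Cells came from back skin and were sorted as negative for CD31, CD45, CD117, CD140a and CD34 and high for CD49f (ITGA6) and Ly6A, and each replicate pooled several mice. The authors merged both replicates before they called peaks, so each week is represented by 1 list, no spread between replicates could be had and nothing below was tested. The list, not the animal, is therefore the unit of every statement. In sorted populations of this kind, fewer cells with an open site and less opening per cell cannot be told apart.

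SOX9 is a transcription factor with an HMG box that governs hair follicle stem cells (HFSCs) and is normally silent in adult epidermal stem cells. It belongs to the pioneer factors, which can bind their motif in closed, nucleosome-covered DNA and prepare it for other factors. Epidermal chromatin is held in turn by factors such as p63, GATA3, AP1 and KLF proteins. ATAC-seq reads this state through the Tn5 transposase, which cuts accessible DNA more often than wrapped DNA.

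The lists were checked before they were compared. Promoter peaks (here, any part of a peak within 1 kb of a transcription start site, TSS) were present at 6 of 7 basal epidermal markers at W1 and 7 of 7 at W2, with Ly6a listed only at W2 (score 5.39). The summed score of the basal markers was 115.3 at W1 and 88.0 at W2. Immune markers had promoter peaks at 0 of 7 genes in both lists. Melanocyte markers had promoter peaks at 3 of 7 genes in both lists (summed score 112.0 at W1 and 103.1 at W2) and fibroblast markers at 2 of 6 (21.9 and 18.7). Merkel cell markers had 3 of 4 in both (50.5 and 89.0). Endothelial markers had 0 of 5 at W1 and 3 of 5 at W2, namely Pecam1, which encodes the sorting antigen CD31 (38.3), Kdr (5.85) and Tek (5.36), whereas Cdh5 and Tie1 had none. The Pecam1 peak only reached into that window, as its centre lay 1267 bp from the nearest annotated Pecam1 TSS. The part of these marker differences in the results below was not tested. A peak confined to Sox9 exon 3, as the intron-free coding sequence of the transgene would also give, was listed at D0, W2, W6 and W12 and not at W1, although all these groups carry the transgene by their labels. Whether this 1 absent peak bears on the label of that list was not tested, and W1 stands for the list that carries that label.

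The sequences below are examples of SOX letters in W2-only regions and of GATA letters in W1-only regions, whose shares on each side are compared further on. They were picked for these letters, which most regions of either side, some of the highest-scoring ones among them, did not hold. They are the central 200 bp of the 4 highest-scoring regions on each side that held such a match, on the plus strand of GRCm38, and capitals mark the match. The SOX letters searched were ACAATAG or ACAATGG and the GATA letters AGATAA, on both strands, so that a match may also read as their reverse complement. The 4 W2-only regions lay near Foxq1, a forkhead factor gene, at 2 intergenic sites more than 100 kb from any TSS, and in an intron of Pdlim5, which encodes a cytoskeletal adaptor.
W2-only, chr13:31547767-31547966 (near Foxq1): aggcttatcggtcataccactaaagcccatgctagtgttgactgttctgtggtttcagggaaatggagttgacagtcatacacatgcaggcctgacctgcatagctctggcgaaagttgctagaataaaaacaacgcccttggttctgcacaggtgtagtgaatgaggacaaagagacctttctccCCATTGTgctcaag
W2-only, chr8:60773506-60773705 (intergenic): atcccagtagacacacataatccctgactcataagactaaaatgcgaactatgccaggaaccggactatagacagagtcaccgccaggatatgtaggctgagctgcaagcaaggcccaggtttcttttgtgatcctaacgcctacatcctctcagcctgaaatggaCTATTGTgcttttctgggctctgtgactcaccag
W2-only, chr13:31327673-31327872 (intergenic): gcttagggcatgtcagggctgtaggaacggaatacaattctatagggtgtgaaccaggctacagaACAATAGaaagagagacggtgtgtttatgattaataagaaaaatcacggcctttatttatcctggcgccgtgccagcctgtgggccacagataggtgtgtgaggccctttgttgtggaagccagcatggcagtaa
W2-only, chr3:142318260-142318459 (Pdlim5 intron): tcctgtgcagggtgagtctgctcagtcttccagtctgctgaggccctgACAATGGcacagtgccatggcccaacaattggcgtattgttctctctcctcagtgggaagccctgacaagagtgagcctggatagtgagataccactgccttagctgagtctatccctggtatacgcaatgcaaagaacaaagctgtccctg
The 4 W1-only regions were intergenic, and the last lay near Pik3r1, which encodes a regulatory subunit of PI3 kinase.
W1-only, chr9:46512058-46512257 (intergenic): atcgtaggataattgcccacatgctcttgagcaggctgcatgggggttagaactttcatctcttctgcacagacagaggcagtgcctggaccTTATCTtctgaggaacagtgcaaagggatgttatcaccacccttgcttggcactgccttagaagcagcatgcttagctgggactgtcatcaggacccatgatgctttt
W1-only, chr11:7446244-7446443 (intergenic): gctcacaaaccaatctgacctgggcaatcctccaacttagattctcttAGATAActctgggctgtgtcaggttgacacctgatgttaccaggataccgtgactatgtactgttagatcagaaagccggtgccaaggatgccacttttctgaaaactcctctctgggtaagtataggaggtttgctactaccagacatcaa
W1-only, chr12:10561985-10562184 (intergenic): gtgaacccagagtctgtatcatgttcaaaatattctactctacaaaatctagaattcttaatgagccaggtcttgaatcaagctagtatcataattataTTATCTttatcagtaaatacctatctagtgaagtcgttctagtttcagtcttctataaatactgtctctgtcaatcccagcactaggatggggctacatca
W1-only, chr13:101679002-101679201 (near Pik3r1): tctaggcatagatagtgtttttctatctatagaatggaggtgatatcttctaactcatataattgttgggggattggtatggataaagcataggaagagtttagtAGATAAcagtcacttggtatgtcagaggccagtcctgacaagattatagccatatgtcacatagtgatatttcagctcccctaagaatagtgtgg

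The authors' normalised score of these regions followed opposite courses. The region near Foxq1 scored 7.89 at D0, had no peak at W1 and scored 105.5, 62.8 and 58.0 from W2 to W12. The Pdlim5 region scored 6.90 at D0, had no peak at W1 and scored 78.6, 67.9 and 37.3 from W2 on. Both W2-only regions were thus still listed at the last time point. The W1-only region near Pik3r1 scored 22.8 at D0 and 36.0 at W1, had no peak at W2 or W6 and scored 4.42 at W12. The W1-only region on chromosome 12 scored 30.6 at D0 and 36.7 at W1 and had no peak in any later list.

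W2-only regions made up 24.1% of all merged regions (95% Wilson interval 23.8 to 24.4%), W1-only regions 19.0% (18.8 to 19.3%) and shared regions 56.9% (56.5 to 57.2%). These and all later intervals cover counting error only. The week before, from D0 to W1, left 75% of 64823 regions in both lists, and the interval from W2 to W6 left 67.0% of 82607, both above the part shared between W1 and W2. From D0 to W2, with the list labelled W1 passed over, 61.8% of 73922 regions were in both lists, so that W2 had a larger part in common with D0 than with W1. The balance between both sides depended on where the lists were cut. The log2 ratio of W2-only to W1-only regions was 0.34 as deposited, -0.18 when the W2 list was shortened to the size of the W1 list and -1.12 when both lists were held to a common q-value minimum. The direction of the balance is therefore not read below, and the 2 sides are described by which regions they held.

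Relative to shared regions, both sides consisted of narrow, weak and distal peaks. The median score was 5.05 for W1-only and 5.85 for W2-only regions, against 14.4 (W1) and 13.3 (W2) in shared regions, where the lowest score kept by the authors was 3.0 in both lists. Regions just inside that limit, at that score, included an intron of Aspscr1 on the W2 side and an intron of Osbpl8 on the W1 side, and scores just outside it were not in the lists. The W2-only side had the longer upper tail, with 1329 regions (7.26%) at a score of at least 20 against 269 (1.86%) on the W1-only side. Median widths were 408 bp for W1-only, 327 bp for W2-only and 683 bp for shared regions. The median peak width was 577 bp in the W1 list and 428 bp in the W2 list, and a shared region spans its peaks in both. Presence in 1 list only also favours scores near the limit. The lower widths and scores than in shared regions therefore follow in part from how the sides were defined. The median distance to a TSS was 22180 bp for W1-only, 28558 bp for W2-only and 11451.5 bp for shared regions. Promoters made up 7.15% of W1-only regions (6.75 to 7.59%), 5.92% of W2-only regions (5.59 to 6.27%) and 29.5% of shared regions, and the order of the former 2 turned when peaks up to 500 bp apart were merged (4.70% and 4.85%). The rest were mostly in introns (43.8% of W1-only and 42.5% of W2-only regions) or between genes (44.9% and 48.1%). The nearest shared region lay at a median of 7.54 kb from W1-only and 9.98 kb from W2-only regions.

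The other lists of the study, which took no part in the choice of regions, separated the 2 sides. These lists differ in size, with 57334 peaks at D0, 75956 at W6 and 71503 at W12. Their median −log10 q was 52.5, 19.3 and 31.5, against 36.7 at W1 and 17.9 at W2. The part of these differences in the shares was not tested. A peak was present at D0 in 54.9% of W1-only regions (54.1 to 55.7%) and in 22.8% of W2-only regions (22.2 to 23.5%). At W6 the order was the opposite, with 25.9% (25.2 to 26.6%) of W1-only and 80.4% (79.8 to 81.0%) of W2-only regions, and at W12 the shares were 31.4% and 66.9%. Shared regions were listed at 94.5% (D0), 92.7% (W6) and 92.5% (W12). Where they were listed, W2-only regions had a median score of 4.52 at D0, 5.85 at W2, 8.36 at W6 and 7.17 at W12. These medians are over different regions, as those of D0, W6 and W12 leave out the regions not listed there. W2-only regions kept at W6 and W12 and absent at D0 had a median of 6.90 already at W2, against 4.39 for those in no other in vivo list. W1-only regions had 5.46 at D0, 5.05 at W1, 4.54 at W6 and 4.6 at W12. The most frequent course among W2-only regions was absence at D0 and presence at W6 and W12 (8093 regions, 44.2%), and 2531 (13.8%) were in no other in vivo list. Another 3376 (18.4%) had peaks at D0, W2, W6 and W12 and lacked one only at W1. Among W1-only regions, 4600 (31.8%) were in no other in vivo list, 4107 (28.4%) were at D0 as well and at no later time, and 1844 (12.7%) were missing only at W2.

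**Figure D1:**
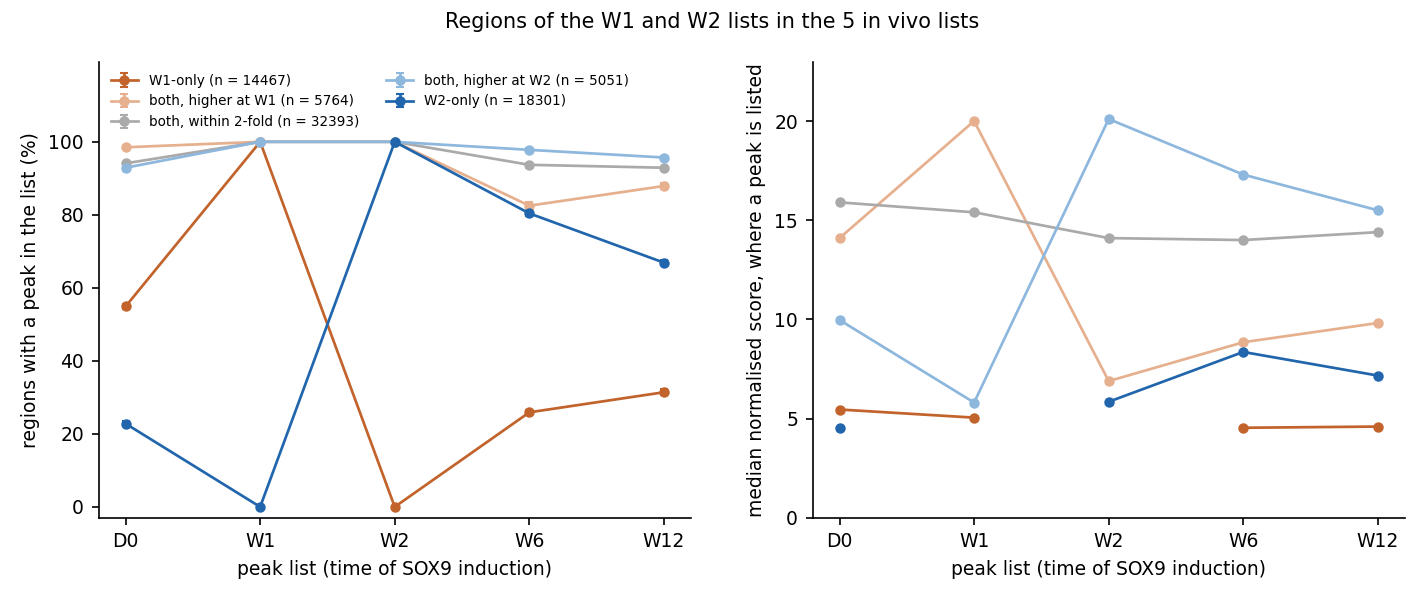
Share of regions with a peak (left, percent) and median authors' score of those peaks (right) in the 5 in vivo lists, for W1-only, W2-only and shared regions, the latter split by the size of the score ratio. W2-only regions had a peak at W6 in 80.4% and at D0 in 22.8%, whereas W1-only regions had one at D0 in 54.9% and at W6 in 25.9%.

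Sequence motifs differed between the 2 sides. Of W2-only regions, 10.9% (10.5 to 11.4%) held a SOX match in their central 200 bp, against 2.39% (2.16 to 2.65%) of W1-only, 3.18% of shared and 4.89% of all regions. Windows of the same length 2 kb away held one in 5.25%, 4.88% and 4.67% of W2-only, W1-only and shared regions, so the W1-only and shared centres lay under their flanks and the W2-only centres above. The SOX share also moved with peak height. It was 8.37% (7.54 to 9.27%) among W2-only regions with scores of 3 to 4, 13.6% at scores of 10 to 20 and 24.5% (19.1 to 30.8%, 50 of 204 regions) at 40 and above. On the W1-only side it was 2.96% at scores of 3 to 4 and 1.95% at 20 to 40.

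GATA matches, the letters bound by the epidermal factor GATA3 and its relatives, had the opposite distribution. They were in 17.8% (17.2 to 18.4%) of W1-only, 10.1% (9.70 to 10.6%) of W2-only, 9.26% of shared and 11.1% of all regions, with 11.2% in the flanks. The W1-only share was 16.4% at scores of 3 to 4, 23.5% at 10 to 20 and 30.4% (25.1 to 36.2%, 78 of 257) at 20 to 40, while only 2 of the 12 W1-only regions at 40 and above held one. W2-only regions ranged from 9.61% at scores of 3 to 4 to 13.2% at 40 and above.

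AP1 letters (TGAGTCA or TGACTCA), bound by FOS and JUN dimers, were in 22.4% of W2-only, 12.2% of W1-only, 15.3% of shared and 16.4% of all regions. RUNX letters (TGTGGT) were in 16.7% of W2-only against 12.7% of W1-only regions (all regions 13.3%), TEAD letters (GGAATG) in 16.7% against 13.8% (14%) and CEBP letters (TTGCNNAA) in 12.5% against 9.99% (9.90%). Homeobox letters TAATTA, read by LHX factors among others, were in 6.26% of W1-only against 4.02% of W2-only regions (4.08%). The p63 motif was rare, in 0.602% of W1-only against 0.312% of W2-only regions (0.338%). The CTCF motif was in 4.07% of W1-only and 1.47% of W2-only regions (2.49%), and it lay at weak peaks, since it was in 5.66% of W1-only regions with scores of 3 to 4 and 0.286% at 10 to 20. ETS letters (CCGGAAGT) were scarce on both sides (0.242% and 0.235%) and in 1.48% of shared regions, which held most promoters. None of these other letters contains the SOX letters.

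**Figure D2:**
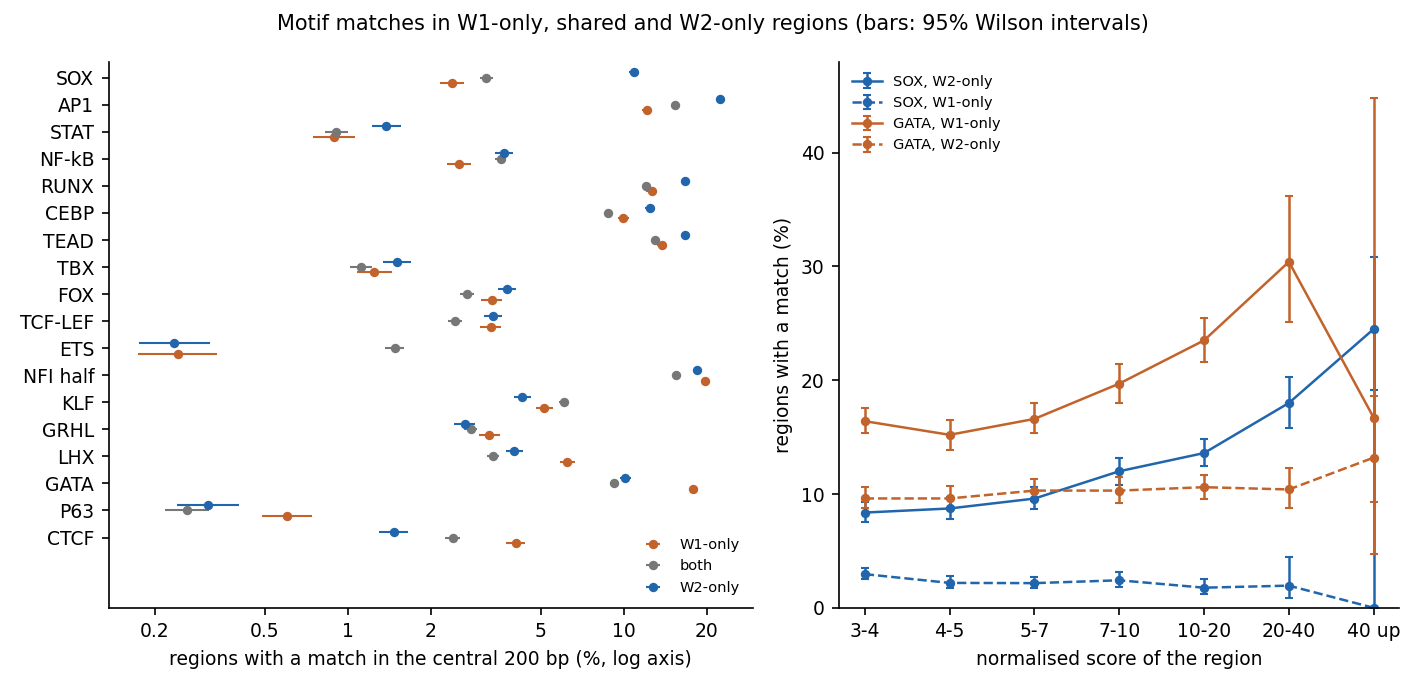
Percent of W1-only, shared and W2-only regions with a match to each of 18 motifs in the central 200 bp, with 95% Wilson intervals (left), and the SOX and GATA shares by authors' score (right). SOX matches were in 10.9% of W2-only and 2.39% of W1-only regions, and GATA matches in 10.1% and 17.8%.

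The regions with these matches were followed in the other lists. The 1997 W2-only regions with a SOX match had a median score of 7.20, against 5.85 without one, and lay farther from genes (median 35775 bp against 27898.5 bp). In culture, 47.7% (45.5 to 49.9%) of them had a peak in EpdSCs that expressed wild-type SOX9, against 35.7% of W2-only regions without a match. The order was reversed in lists made without DOX, with 25% against 32.0% in uninduced cultured EpdSCs and 15.4% against 23.7% at D0. W2-only regions with an AP1 match differed from these, as 52.6% (51.1 to 54.1%) were already listed in uninduced culture, against 25.1% without AP1 letters, and 85.9% against 61.5% were listed at W12. W1-only regions with a GATA match were listed at W6 in 14.4% (13.1 to 15.8%), against 28.4% without, and in SOX9-expressing culture in 8.19% against 18.1%. Regions that held both SOX and AP1 letters anywhere were 4.53% of W2-only, 3.97% of shared and 1.14% of W1-only regions. The median distance between both matches was 82 bp in W2-only, 173 bp in shared and 145 bp in W1-only regions, which also differ in width as given above.

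Cultured EpdSCs covered only a part of both sides. Of W2-only regions, 2597 (14.2%, 13.7 to 14.7%) were absent without DOX and present with wild-type SOX9 in culture, and 20.6% of these held a SOX match. The opposite course in culture was taken by 1539 (8.41%), of which 5.33% held one. Among W1-only regions, 542 (3.75%) were present only with SOX9 and 1238 (8.56%) only without DOX, and shared regions had nearly the same shares (3.45% and 9.0%). Neither culture list had a peak in 54.6% of W2-only, 75.1% of W1-only and 27.6% of shared regions.

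The absence from W1 of peaks seen at D0 bears on the SOX count. Among regions present at W2, W6 and W12, SOX matches were in 12.6% (11.9 to 13.3%) of the 8093 absent from both earlier lists, 7.41% (6.57 to 8.34%) of the 3376 present at D0 and not at W1, and 3.83% (2.90 to 5.04%) of the 1254 present at W1 and not at D0. W2-only regions that were also absent at D0 (14120 regions, an alternative chosen after the data were seen) had a SOX share of 12%.

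Shared regions differed between the weeks by score. The median log2 ratio of the W2 to the W1 score was -0.15 (quartiles -0.66 and 0.43), and 5051 of 43208 (11.7%) scored at least 2 times higher at W2 and 5764 (13.3%) at least 2 times higher at W1. With each list's scores divided by its median over shared regions these counts were 5911 and 4509, so that their order turned, and with the authors' fold enrichment over background in place of the score they were 841 and 972. Promoters had a median of -0.37, with 3.05% at least 2 times higher at W2 and 13.2% at W1, whereas introns had -0.01 and intergenic regions -0.02. Shared regions with a SOX match had a median of 0.29, with 28% at least 2 times higher at W2 and 8.52% at W1. AP1 matches came with 0.14 (19.6% and 9.89%) and GATA matches with -0.20 (13.7% and 18.6%). Shared regions without SOX letters had a median of -0.16 (11.2% and 13.5%), and those without GATA letters -0.15 (11.5% and 12.8%). On the scale of fold enrichment the medians were smaller, with 0.12 for SOX, 0.06 for AP1, -0.07 for GATA matches and -0.08 for promoters against -0.04 for all shared regions. In shared regions the SOX and AP1 letters thus came with higher scores at W2, whereas the medians with and without GATA letters were close and ratios of at least 2 in either direction were more frequent with them. Regions at least 2 times higher at W2 were distal (7.68% promoters, median TSS distance 27145 bp), whereas those at least 2 times higher at W1 (29.2% and 12036 bp) were close to all shared regions (29.5% and 11451.5 bp).

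**Figure D3:**
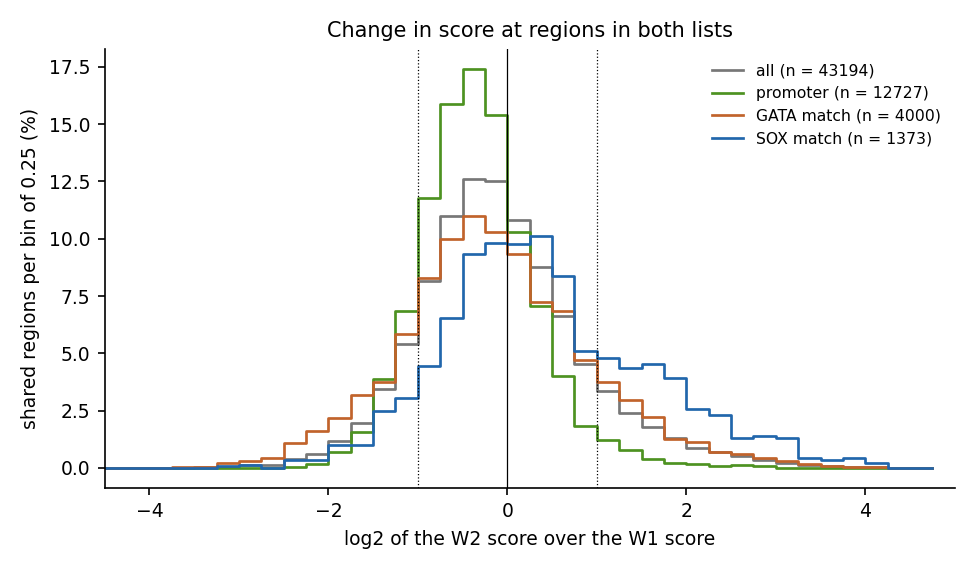
Distribution of the log2 ratio of the W2 to the W1 score over shared regions (x axis, log2; y axis, percent of the regions in each group), for all shared regions, promoters, and regions with a SOX or GATA match. The median is 0.29 for SOX matches, -0.15 for all, -0.20 for GATA matches and -0.37 for promoters.

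The D0 list placed W1 at an extreme in many of these regions. Of 4691 regions at least 2 times higher at W2 that also had a D0 peak, 3987 (85.0%) scored higher at D0 than at W1, with medians of 9.97 at D0, 6.07 at W1 and 21.2 at W2. Of regions within 2-fold, 46.4% scored higher at D0 than at W1. Of those at least 2 times higher at W1, 18.6% did so, and their medians were 14.1 at D0, 20.3 at W1 and 7.03 at W2. Choosing regions by their W1 score moves both shares in these directions, so they are given as a description of the list labelled W1.

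The highest W2-only score, 139.1, belonged to an intron of Jmy (chr13:93488449-93489015), a regulator of actin and p53 responses. It scored 3.30 at D0, had no peak at W1 and scored 55.4 at W6 and 55.2 at W12, and it held AP1 letters and no SOX letters. An intron of Prune2 (chr19:17140243-17140858) scored 10.9 at D0, had no peak at W1 and scored 93.6, 68.8 and 58.4 afterwards. A region near Esyt3, which encodes a lipid transfer protein of membrane contact sites, scored 13.3 at D0, had no peak at W1 and scored 94.3 at W2, 81.3 at W6 and 66.2 at W12. These regions were present at D0 at a fraction of the later score. Of the 100 highest W2-only regions, all were listed at W6 and at W12, 66 at D0, 81 in SOX9-expressing culture and 58 in culture without DOX, 25 held a SOX match and 31 an AP1 match, and none was a promoter.

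The highest W1-only score, 124.0, lay in an intron of 1600014C10Rik (chr7:38187761-38188231), which scored 99.6 at D0 and had no peak after W1. An intron of Cux1, a homeobox gene (chr5:136445835-136446679), scored 41.9 at D0 and 58.2 at W1, had no peak at W2 or W6 and scored 5.51 at W12. A region near Cd9, which encodes a tetraspanin of the keratinocyte surface (chr6:125514208-125514912), scored 59.6 at D0 and 47.8 at W1, had no peak at W2 or W6 and scored 9.06 at W12. Of the 100 highest W1-only regions, 99 were listed at D0, 24 at W6, 59 at W12, 5 in SOX9-expressing culture and 12 in culture without DOX, 28 held a GATA match, 8 an AP1 match and 0 a SOX match.

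Shared regions with a mean score of at least 10 were ranked by their ratio. The largest ratio in favour of W2 was in an intron of Trps1, a GATA-type repressor needed for hair development (chr15:50692518-50693287). It scored 7.89, 3.41, 81.3, 53.6 and 38.0 from D0 to W12 (log2 ratio 4.58). A region downstream of Gata6, a GATA factor of the upper hair follicle (chr18:11126891-11127588), scored 13.5, 3.41, 63.9, 34.0 and 24.0 over the same 5 lists (4.23). A region upstream of the ligand gene Wnt2b (chr3:104993677-104994832) had no peak at D0 and scored 3.21, 54.0, 32.0 and 33.3 from W1 to W12 (4.07). In favour of W1, a region assigned to Dtl, a gene of DNA replication control (chr1:191517875-191518527), scored 77.1, 46.8, 3.11, 9.90 and 22 from D0 to W12 (-3.91). An intron of Pde4d, a cyclic AMP phosphodiesterase gene (chr13:109827133-109828099), scored 55.7 at D0, 53.4 at W1 and 4.08 at W2, had no peak at W6 and scored 5.13 at W12 (-3.71). The W1 values of the top W2 regions and the W2 values of the top W1 regions all lay near the score limit.

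Regions were assigned to the nearest TSS of a protein-coding gene within 100 kb, which placed 65149 of them. Of these, 14622 (22.4%) were W2-only and 12104 (18.6%) W1-only. Among 15620 genes with any region, 4623 (29.6%) had more W2-only than W1-only regions and 4088 (26.2%) the reverse. At least 1 W2-only region was assigned to 6813 genes and at least 1 W1-only region to 6556, and 3476 genes had both. Genes with at least 5 W2-only and no W1-only region numbered 167, and those with the reverse 60. Like the balance of regions, these counts turned with the limits, to 97 and 109 with the W2 list shortened to the W1 size and to 28 and 261 with the common q-value minimum. Genes in excess at W2 and at W1 then numbered 3529 and 5138, and 2074 and 7015.

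Sema6a, which encodes a transmembrane semaphorin, had the largest number of W2-only regions, 20 against 0 W1-only and 4 shared. All 20 were listed at W6 and 1 of them at D0. Their W2 scores ranged up to 28.9, for an intron region on chromosome 18 from 47316683 to 47317277 with no peak at D0 or W1, 16.2 at W6 and 13.7 at W12. The shared Sema6a promoter scored 73.3, 31.7, 75.7, 55.1 and 45.2 from D0 to W12. Adgrl2, an adhesion receptor gene, had 17 W2-only, 3 W1-only and 14 shared regions, and Ppm1h, a phosphatase gene, had 17, 4 and 9. Etl4 had 16, 7 and 21. Gmds, whose product makes GDP-fucose, had 15, 0 and 2, and the ubiquitin ligase gene Pdzrn3 had 15, 0 and 0. Pdzrn3 thus had no region in the W1 list, and 14 of its 15 W2 regions were also at W6. Alcam, an adhesion molecule gene, had 14, 1 and 2, with a highest W2-only score of 49.8. Fzd7, a WNT receptor gene, had 13, 0 and 2, and 12 of these 13 were listed at W6.

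Most of the genes with the largest numbers of W1-only regions also held W2-only regions, with Satb1 as an exception. Utrn, the gene of the dystrophin relative utrophin, had 13 W1-only, 4 W2-only and 20 shared regions. Sh3pxd2a had 13, 7 and 15, and Tenm4 had 13, 11 and 22. The largest excess was at Itga6, the gene of the basal integrin that served as the sorting antigen CD49f, with 12 W1-only, 1 W2-only and 12 shared regions. Of its 12 W1-only regions, 3 were listed at D0, none at W6, and 4 held a GATA match. The strongest (chr2:71742017-71742708) scored 7.35 at D0 and 23.5 at W1 and had no later peak, while the shared Itga6 promoter scored 14, 19.9, 21.1, 19.2 and 10.5 from D0 to W12. Satb1, which encodes a chromatin organiser that acts downstream of p63 in epidermis, had 10 W1-only, 0 W2-only and 8 shared regions, of which 7 of the 10 were at D0 and none at W6. A region upstream of Satb1 shared by both lists (chr17:51855352-51856629) scored 30.9 at D0, 30.7 at W1 and 3.40 at W2. Bmp3 had 8 W1-only, 0 W2-only and 4 shared regions, the strongest with a score of 40.5.

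**Figure D4:**
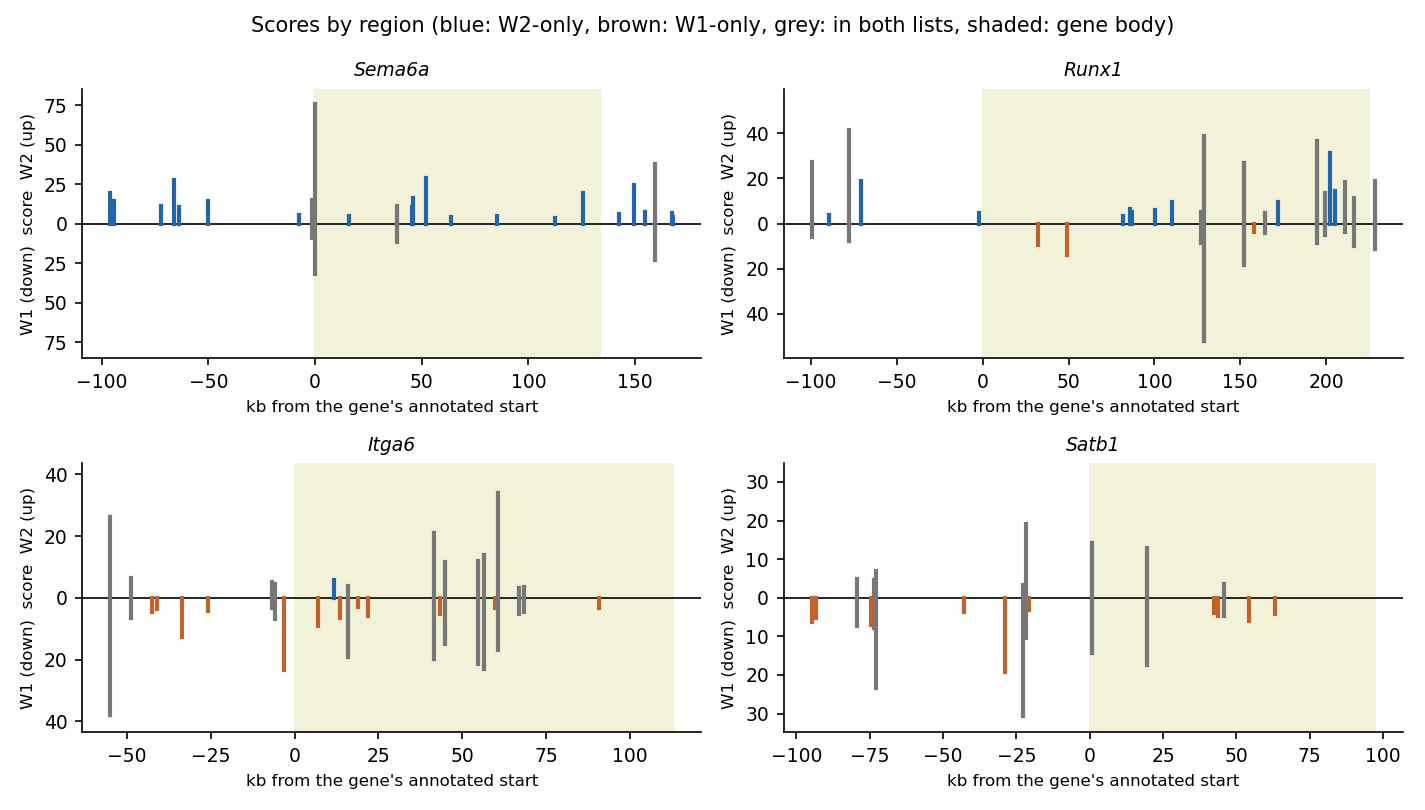
Authors' score of each region at 4 genes by distance from the gene start (x axis, kb), with W2 scores drawn upward and W1 scores downward and colours for W1-only, shared and W2-only regions. Sema6a had 20 W2-only and 0 W1-only regions and Runx1 11 and 3, whereas Itga6 had 1 and 12 and Satb1 0 and 10.

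Lists of genes chosen for this tissue were read against the background of 22.4% W2-only and 18.6% W1-only. The list of RUNX factor genes, whose products direct hair follicle growth, also held Cbfb, the gene of their partner protein. Of its 47 regions, 48.9% were W2-only and 12.8% W1-only, and 25 belonged to Runx1. All 4 genes had more W2-only than W1-only regions, Cbfb with 1 against 0 and 3 shared. Runx1 had 11 W2-only, 3 W1-only and 11 shared regions, Runx3 had 6, 2 and 1 and Runx2 had 5, 1 and 3. A Runx1 intron region (chr16:92623879-92624317) had no peak at D0 or W1 and scored 31.4 at W2, 16.0 at W6 and 10.3 at W12. A shared region upstream of Runx1 (chr16:92903547-92904590) scored 16.7, 7.93, 41.5, 36.2 and 32.5 from D0 to W12, while the Runx1 promoter scored 43.1, 52.2, 39.0, 28.1 and 33.0. The log2 ratio of the Runx1 promoter, -0.42, was near the median of -0.37 for all shared promoters. Its fold enrichment was 9.99 at W1 and 10.3 at W2. The distal regions of Runx1 moved in both directions, as an intron region (chr16:92777061-92777571) scored 13.8 at W1 and had no peak at W2.

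HFSC transcription factors had 197 regions, 31.5% W2-only and 19.8% W1-only, with 8 of 12 genes in excess at W2 and 3 at W1. Their largest excess was at Sox9 itself, with 7 W2-only, 1 W1-only and 4 shared regions. One of the 7 was the exon 3 peak (chr11:112784734-112785461), which scored 13.5 at D0, 15.1 at W2, 9.22 at W6 and 8.84 at W12, and the other 6 scored between 3.54 and 14.7. Without that peak the excess at Sox9 was equal to those at Foxc1 and Gata6. The Sox9 promoter was shared and scored 13.8, 17.3, 21.2, 15.9 and 10.3 from D0 to W12. Foxc1, a quiescence factor of HFSCs, had 8, 3 and 5 regions and Gata6 had 7, 2 and 4. On the other side Foxp1 had 10 W2-only and 12 W1-only regions, Nfib had 9 and 10, and Lhx2, a factor at the top of the HFSC network, had 5 regions, all shared. HFSC and outer root sheath markers had 97 regions, 34.0% W2-only and 11.3% W1-only. Cd34, an HFSC surface antigen that the sort selected against, had 3 W2-only, 0 W1-only and 3 shared regions, and the strongest W2-only region (chr1:194895189-194895708) had no peak at D0 or W1 and scored 32.6 at W2, 26.3 at W6 and 3.39 at W12. Ltbp1, a TGF-beta binding protein gene, had 6, 1 and 5. Marker genes of other cell types had W2-only shares of the same size on fewer regions, namely 38.5% of 26 for melanocytes (3.85% W1-only), 36.4% of 22 for endothelium (4.55%), 36.4% of 11 for Merkel cells (18.2%), 33.3% of 6 for immune cells (16.7%) and 30% of 10 for fibroblasts (20%). Basal epidermal markers had 103 regions, 20.4% W2-only and 32.0% W1-only. The part of these cell types in the shares of the hair follicle lists was not tested.

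Hair placode and bud genes had 129 regions, 27.1% W2-only and 21.7% W1-only. Barx2, a homeobox gene of hair follicle growth, had 12 W2-only, 1 W1-only and 13 shared regions, while Fgf20, a placode signal, had 1, 6 and 5. The Notch pathway had 166 regions (24.7% and 12.7%), with the coactivator gene Maml2 at 9, 0 and 13 and the DNA-binding partner gene Rbpj at 6, 1 and 6. The hedgehog pathway had 112 (25% and 16.1%), with the co-receptor gene Boc at 7, 2 and 12. EGF receptors and ligands, listed with the feedback genes Errfi1, Spry2 and Spry4, had 141 (27.0% and 19.1%). SOX factors had 102 (28.4% and 18.6%), with Sox6 at 10 W1-only, 4 W2-only and 9 shared regions.

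**Figure D5:**
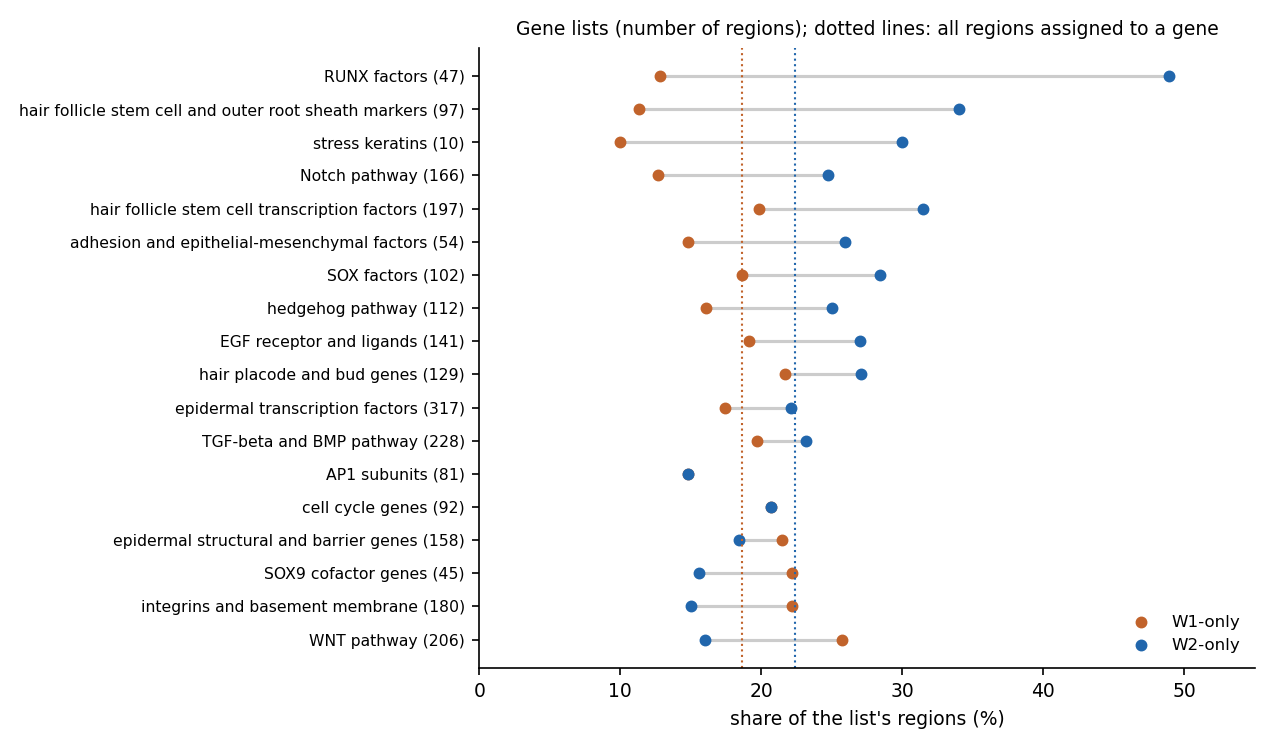
Percent of the regions of each gene list that were W1-only and W2-only, with dotted lines at the background of all gene-assigned regions (18.6% and 22.4%). The RUNX factor list, which includes Cbfb, had 48.9% W2-only regions, and the WNT pathway and the integrin list had 25.7% and 22.2% W1-only regions.

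Epidermal transcription factors and structural genes were near the background or under it on the W2-only side. The former had 317 regions, 22.1% W2-only and 17.4% W1-only, and the genes diverged. Cebpb had 10 W2-only, 1 W1-only and 12 shared regions and Maf had 8, 0 and 7, whereas Klf5 had 2, 6 and 13 and Grhl3, a barrier factor gene, had 1, 5 and 10. Trp63, the gene of the epidermal master factor p63, had 12 W2-only, 10 W1-only and 15 shared regions. A region upstream of Trp63 (chr16:25666545-25667308) scored 5.74 at D0, had no peak at W1 and scored 51.8 at W2, 43.8 at W6 and 22.8 at W12. A Trp63 intron region with SOX, GATA and RUNX letters (chr16:25844391-25844925) had no peak at D0 or W1 and scored 32.6, 32.3 and 14.8 from W2 to W12. The annotated Trp63 promoter with a peak scored 20.3, 22.9, 11.6, 10.2 and 16.5 from D0 to W12. Structural and barrier genes had 158 regions (18.4% and 21.5%). Krt14 had 3 W2-only, 0 W1-only and 2 shared regions with a highest W2-only score of 35.2, while the crosslinking enzyme gene Tgm3 had 1, 7 and 10. Krt5, the partner of Krt14, had 1, 2 and 4, and its promoter scored 21.7, 24.1, 20.5, 12.9 and 20.7 from D0 to W12. Stress keratins had 10 regions, of which 30% were W2-only and 10% W1-only, and Krt6a had 3, 0 and 1, with a promoter that had no peak at W1 and scored 5.44 at D0 and 15.6, 26.8 and 24.1 from W2 to W12.

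The WNT pathway list had 206 regions, of which 16.0% were W2-only and 25.7% W1-only, with 11 of 21 genes in excess at W1 and 7 at W2. These shares depended on the members chosen, since Fzd7 (13, 0 and 2) is not in the list and Tcf7l1 (4, 1 and 6) and Tcf7l2 (8, 4 and 17) are counted with the HFSC factors. With these 3 genes added, both shares were 22.2% (58 and 58 of 261 regions). Wnt3 had 7 W1-only, 0 W2-only and 4 shared regions, and its strongest W1-only region, 78986 bp from the Wnt3 TSS in an intron of the neighbouring gene Nsf (chr11:103852458-103853814), scored 32.2 at D0, 36.6 at W1, 5.70 at W6 and 9.10 at W12. Wnt5a had 7, 0 and 3, with its upstream start (chr14:28504294-28504985) listed at W1 alone (4.81). The feedback gene Axin2 had 6 W1-only, 1 W2-only and 11 shared regions. Ctnnb1, the gene of beta-catenin, differed, with 4 W2-only, 0 W1-only and 7 shared regions. Its W2-only region beside the TSS (chr9:120932309-120932890) had no peak at D0 or W1, scored 30.1 at W2, 29.8 at W6 and 15.5 at W12 and held SOX letters, while the shared region over the TSS scored 6.82, 18.2, 6.04, 5.72 and 3.81 from D0 to W12.

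Integrin and basement membrane genes had 180 regions, 15% W2-only and 22.2% W1-only, where Itga6 contributed 12 of the 40 W1-only regions and Lama3, a laminin gene, 7. The TGF-beta and BMP pathway had 228 (23.2% and 19.7%) with members on both sides. Nog, the gene of the BMP antagonist noggin, had 6 W2-only, 0 W1-only and 4 shared regions. Its strongest (chr11:89248575-89249149) scored 7.02 at D0, had no peak at W1 and scored 51.0 at W2, 34.8 at W6 and 29.4 at W12. Bmp4 had 5 W1-only, 0 W2-only and 9 shared regions, and its shared promoter scored 45.9, 38.4, 11.5, 6.41 and 15.2 from D0 to W12. AP1 subunit genes had 81 regions (14.8% and 14.8%), cell cycle genes 92 (20.7% and 20.7%), adhesion and epithelial-mesenchymal genes 54 (25.9% and 14.8%) and genes of SOX9 cofactors 45 (15.6% and 22.2%). Vim, the mesenchymal intermediate filament gene, had 2 regions, both shared, and its promoter scored 5.76, 3.0, 8.75, 12.4 and 11.5 from D0 to W12. Gata3 had 1 W2-only, 4 W1-only and 11 shared regions, and its promoters and strongest distal regions were shared. The largest ratio among its shared regions was at an intron region with GATA letters (chr2:9859968-9860641), which scored 36.7 at D0, 44.0 at W1 and 14.2 at W2 (log2 ratio -1.63), had no peak at W6 and scored 3.29 at W12.

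Promoters of the listed genes were mostly in both lists, with 222 shared (82.2%), 22 W2-only (8.15%) and 26 W1-only (9.63%) promoter regions, near the 85.7%, 7.30% and 6.97% of all promoter regions. Of the W2-only ones, Ctnnb1 (30.1), Krt6a (15.6) and Ltbp1 (10.4) scored highest, and the last had 7.76 at D0, 20.6 at W6 and 16.2 at W12. Of the W1-only ones, Nfatc1, an HFSC quiescence factor gene, scored 7.26 at D0, 12.3 at W1, 5.39 at W6 and 3.88 at W12, and Notch1 scored 3.06 at D0, 10.8 at W1 and 5.10 at W12. Signalling genes had promoters on both sides, for example Ptch1 (8.47 and 3.71), Gli1 (3.32), Hes1 (3.42) and Axin2 (3.44) on the W1-only side and Smad7 (6.89) and Ccnd1 (4.19) on the W2-only side. Over all genes the highest W2-only promoters were those of Sval2 (42.2), Tmem268 (40.5) and Slco5a1 (37.1), and the highest W1-only promoters those of Ech1 (27.4), Tarm1 (25.3) and Atp13a2 (24.9).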

How the data were processed

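Per the submitters' processing notes and the study's methods, the authors aligned ATAC-seq reads to GRCm38 in the PEPATAC pipeline with Bowtie2 2.2.9, handled them with SAMtools 1.9 and Picard 2.3.0, merged both replicates of a group, called peaks with MACS2 2.1.1 and removed peaks under a normalised score of 3. The deposited lists give each peak's score, which the authors normalised by a published procedure that their methods only cite, its fold enrichment over local background and its −log10 q-value. Deposited scores summed to 965818 at W1 and 996710 at W2, nearly the same total although the lists differed in size, so a score is relative to its own list. The lowest deposited −log10 q was 9.37 at W1 and 4.21 at W2, so the same score limit did not stand for the same evidence. Read depth is unknown.

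The W1 list held 57767 peaks and the W2 list 64095. Peaks were merged with at least 1 bp of overlap and a region took the highest score of its peaks. Of the shared regions, 40661 held 1 peak from each list, 90 held several W1 and 2484 several W2 peaks. TSSs came from the GENCODE M21 annotation of GRCm38, and promoters were regions centred within 1 kb of one. Motifs were matched on both strands of the central 200 bp, leaving out 27 regions off the placed chromosomes, and CTCF, p63 and NF-kB by their consensus. Shares carry 95% Wilson intervals. With 1 pooled list per group no test was possible. Named are the genes and regions with the largest numbers or excess of W2-only or W1-only regions, scores or score ratios, over all genes and within each gene list, and Sox9, Runx1, Gata3, Trp63, Krt5, Ctnnb1 and Vim. Promoters of listed and of all genes, the regions whose sequence is shown and further regions of a named gene were chosen after their values were seen. The regions, motifs and gene lists were chosen with earlier results of these data known. Alternatives were other score, size and q-value limits, overlap, gap, motif window, TSS distance and score scale. Python 3.11.15, numpy 2.4.6, pandas 2.3.3, scipy 1.17.1 and matplotlib 3.10.9 were used, and counting was checked on simulated lists.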

Additional observations from a re-analysis of the deposited data

How the results depend on the processing

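Of 150 alternative values for 47 results, 52 moved little, 96 moved beyond counting error or 1.5 times, and 2 changed sign. The latter were the log2 ratio of W2-only to W1-only regions, which was 0.34 as deposited, -0.18 with the W2 list shortened to the W1 size and -1.12 with a common −log10 q minimum of 9.37, which left 47435 of the W2 peaks and 9859 W2-only regions. Shortening the W2 list gave TSS shares of 5.32% (W2-only) and 7.87% (W1-only), a SOX share of 11.5%, a GATA share of 17.0%, and 84.7% of W2-only regions at W6 and 57.6% of W1-only regions at D0. The q minimum gave 4.42%, 9.62%, 12.9%, 15.9%, 91.5% and 63.1% in the same order. A score of at least 5 gave 8.36% of W1-only regions near a TSS, 90.1% of W2-only regions at W6, 79.0% of W1-only regions at D0 and 3040 shared regions at least 2 times higher at W2. With fold enrichment in place of the score, 841 shared regions were at least 2 times higher at W2 and 972 at W1. Merging over 500 bp gave TSS shares of 4.85% (W2-only) and 4.70% (W1-only) and 56.5% of W1-only regions at D0, and within 5 kb the TSS shares were 16.2% and 19.2%. Scanning whole regions gave SOX shares of 16.5% (W2-only) and 6.60% (W1-only) and GATA shares of 18.1% and 30.7%. Chosen after the data were seen, W2-only regions absent at D0 had a TSS share of 4.92%, a SOX share of 12% and 77.9% at W6, and the 7945 W1-only regions present at D0 had a TSS share of 6%, a SOX share of 2.13% and a GATA share of 19.0%. The summit window, the log2 ratio and the WNT list with 3 further genes (22.2% W2-only against 16.0%) were also added after the data were seen, as were the gene counts and chromosome and GC shares under other limits. In every setting that gave these shares the SOX share was higher in W2-only than in W1-only regions, and the GATA share the reverse. The cause of each move was not tested. No paired analysis was possible because each list pools its replicates, and for the same reason no replicate could be left out. Read depth is unknown, and peaks under the score limit were not in the lists, so absence from a list does not show that a site was closed.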

Other observations

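The share of W2-only among regions in 1 list only differed along the genome. It was 48.6% on chromosome 11 (46.4 to 50.7%), 49.7% on chromosome 19, 61.4% on chromosome 6 and 62.9% on the X chromosome (59.3 to 66.4%). Tiles of 1 Mb were grouped by GC content into 5 parts, and the share was 62.9% in the part lowest in GC (35.7 to 39.4%) and 48.6% in the highest (45.2 to 53.7%), with values in between for the others. The level of these shares followed the limits of the lists. The order of the GC parts remained, at 55.4% and 38.9% in the lowest and highest with the W2 list shortened and 41.0% and 23.3% with the common q-value minimum. Chromosome 11 stayed under the X chromosome, at 40.1% against 52.5% with the W2 list shortened and 24.3% against 37.1% with the q-value minimum. The order of chromosomes 11 and 19 turned with the W2 list shortened (40.1% and 38.8%) and not with the q-value minimum (24.3% and 25.1%). Whether the differences along the genome reflect the libraries or the cells was not tested. The tile with the largest excess of W2-only regions lay on chromosome 10 from 24000001 to 25000000, with 49 W2-only, 5 W1-only and 26 shared regions. The tile with the largest excess of W1-only regions lay on chromosome 11 from 116000001 to 117000000, with 8, 38 and 65.

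The culture lists held from 26.5% to 37.0% of the W2-only regions. A peak was present in 37.0% of W2-only regions with wild-type SOX9, 35.8% with SOX9 and ARID1a, 29.6% with SOX9 and AFOS, 29.0% with AFOS alone, 28.6% with SOX9 without its transactivation domain and 26.5% with SOX9 without its HMG domain, against 31.2% without DOX. In W1-only regions the lowest share was that with wild-type SOX9 (16.3%), and the highest that without DOX (21.1%). These lists differ in size and were not tested.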
